A study of Mus musculus with 44 samples.

Results

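Clustered histone genes are the replication-dependent histone genes that lie in tandem groups in the mouse genome. They were taken as the entries of the count table whose symbol starts with Hist1h, Hist2h, Hist3h or Hist4h, without symbols marked -ps, which gave 67 of 46831 genes. By class, 6 encode the linker histone H1, 20 encode H2A, 16 H2B, 12 H3 and 13 H4. Hist1 (54 genes) lies on chromosome 13, Hist2 (10 genes) on chromosome 3, Hist3 (2 genes) on chromosome 11 and Hist4 (1 gene) on chromosome 6. In the GENCODE vM21 annotation of GRCm38, 65 are protein coding and 2, Hist1h2aj and Hist1h2al, are pseudogenes.

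In SLIM-seq, RNA pulled down with an antibody against m6A (IP) is sequenced and set against the starting RNA (input). Cells were sorted from long bones of C57BL/6J mice (C57Bl6 in the labels) at postnatal day 3 into 8 skeletal populations, with 2 IP and 2 input libraries each: skeletal stem cells (SSC), the progenitors called pre-BCSP (pBCSP) and BCSP, and the PCP, THY, BLSP, 6C3 and HEC populations downstream of them. These 32 libraries are labelled wild type (WT). Another 12 libraries, 2 IP and 2 input of each of SSC, pBCSP and BCSP, are labelled Mettl3cko in their titles, and the study made the deletion by crossing Mettl3 fl/fl mice with Col2a1-Cre mice, in which a promoter active in cartilage drives Cre. The genotype field reads wild type for all 44 libraries, so the Mettl3cko label rests on the titles. The labels number 2 replicates per group without tying them to single animals, so p-values measure the spread between these libraries.

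Histone genes of this kind are transcribed mainly in S phase, when new DNA has to be packed into nucleosomes. H2A, H2B, H3 and H4 form the nucleosome core, and H1 binds the linker DNA. Most of their mRNAs have no introns and end in a conserved stem-loop in place of a poly(A) tail. The protein SLBP binds that stem-loop. Some of these genes also make longer, polyadenylated transcripts in cells that have stopped dividing.

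A stem-loop of 16 bases was found within 100 bases after the stop codon in 44 members, against 0.0322% of 21765 other coding genes. The sequences of members on which the results turn are shown as DNA of the coding strand, with the stem-loop in capitals and up to 5 flanking bases in lower case, from GENCODE vM21 transcripts on GRCm38:

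Hist1h1c: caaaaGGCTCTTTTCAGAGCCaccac
Hist1h1e: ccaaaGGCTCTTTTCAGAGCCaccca
Hist1h2ac: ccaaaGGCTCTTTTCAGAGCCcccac
Hist1h2ap: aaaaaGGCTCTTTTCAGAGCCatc
Hist3h2a: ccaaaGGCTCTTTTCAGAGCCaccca
Hist1h4d: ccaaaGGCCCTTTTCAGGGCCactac
Hist1h4m: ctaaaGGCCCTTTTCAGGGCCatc
Hist4h4: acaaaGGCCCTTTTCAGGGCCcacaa

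These lie at chr13:23739507-23739532 on the plus strand for Hist1h1c, chr13:23621777-23621802 on the minus strand for Hist1h1e, chr13:23683472-23683497 on the minus strand for Hist1h2ac and chr13:21833026-21833049 on the minus strand for Hist1h2ap. Hist3h2a has its stem-loop at chr11:58955167-58955192 (plus), Hist1h4d at chr13:23581945-23581970 (plus), Hist1h4m at chr13:21812124-21812147 (plus) and Hist4h4 at chr6:136803993-136804018 (minus). The stem-loop shown for the H1 and H2A genes, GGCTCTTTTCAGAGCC, was shared by 24 of the 44 members. The 3 H4 genes shown share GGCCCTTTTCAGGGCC, in which both arms of the stem differ from the other group. The annotated transcript stopped within 100 bases of the stem-loop in 22 members, such as Hist1h2ap, and ran on for at least 100 bases in another 22, such as Hist1h1c (840 bases further), Hist1h2ac (2010), Hist3h2a (1643) and Hist4h4 (2445). An AATAAA motif stood in the last 40 bases of 10 of the 22 longer models and of 0 of the 22 shorter ones. In 16 members the model ended before a stem-loop could be read. Another 7 were counted as without a match, among them Hist1h2bc, an H2B gene with 2 exons at chr13:23684199-23692908. These 7 include the 2 pseudogenes, which have no annotated stop codon and were not searched.

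Among 60 members with a RefSeq promoter (250 bases before to 50 after the start), TATAAA stood on either strand in 58.3%, against 14.2% of 27025 promoters. CCAAT stood in 85.0% against 37.9%. Many members resemble each other: over 50% of the 75-base windows of the transcript also occur in another gene in 32 of 67. That share was 92.6% for Hist1h2ap, 77.6% for Hist1h2ag, 93.1% for Hist1h2ao and 89.0% for Hist1h4m, so their counts depend on how reads matching several genes were treated and are uncertain for each gene alone. It was 6.66% for Hist1h1c, 3.67% for Hist1h4d, 11.1% for Hist1h2ac, 5.39% for Hist4h4 and 0% for Hist1h1b. Hist1h1e overlaps Hist1h2be and Hist3h2a overlaps Trim17, and strand handling was not stated.

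Libraries held 16480027 to 44046651 counts. The IP libraries labelled Mettl3cko had at least 10 counts for 9813 to 12110 genes, against 13905 to 19516 in WT IP libraries. Mettl3, the targeted methyltransferase gene, was not lower in the libraries labelled Mettl3cko: its input levels were 15.8 and 15.9 CPM in WT SSCs and 17.0 and 18.8 in those labelled Mettl3cko (log2 difference 0.25 ± 0.15 SE over the 3 populations, adjusted p = 0.36, edgeR). Whole-gene counts include exons outside a deletion, and the deleted part is not known here, so this gene does not check the label. The study itself reported the deletion by qRT-PCR and Western blot, and lower m6A by dot blot, in assays apart from these libraries. Thy1 and Enpep followed the sort labels. Thy1 stood at 17.3 to 33.3 CPM in PCP, THY and BLSP inputs and at most 0.9 elsewhere. Enpep (6C3) stood at 40.5 to 54.5 in 6C3 and HEC and at most 8.1 elsewhere. Both were low in SSC, pBCSP and BCSP, so they do not check how these populations were told apart. Ptprc (CD45) stayed at or under 2.2 CPM in every input library.

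2 genes carried most of the clustered histone RNA counted in WT input. The study based its library protocol on Smart-seq2 and did not state the primer. How fully transcripts without a poly(A) tail were captured is therefore not known, and levels refer to counted RNA. Levels are TMM-scaled CPM, a gene's counts over the scaled library total. Hist1h2bc averaged 145 CPM over the 16 WT input libraries (48.4 to 239, median 158), and the H1 gene Hist1h1c averaged 121 (52.4 to 205, median 136). They held 36.2% and 30.2% of the summed level of the 67 members. The next were Hist1h4d at 21.8 CPM, Hist1h1e at 17.4, Hist3h2a at 10.6, Hist1h2bg at 10.5, Hist1h1d at 6.90, Hist1h2ap at 6.59, Hist1h1b at 6.39, Hist1h2ac at 6.30, Hist1h2ag at 5.26 and Hist1h2ae at 3.96. Per kilobase of exonic model, Hist1h2bc (125 CPM per kb) and Hist1h1c (77.6) still led, followed by Hist1h4d (19.2), Hist1h2bg (16.9), Hist1h2ap (13.7) and Hist1h2ag (10.9). On that scale Hist1h1d, with a model of 7425 bases, dropped to rank 29. 40 members averaged under 1 CPM, 13 under 0.1, and 5 had no count in any of the 44 libraries.

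**Figure D1:**
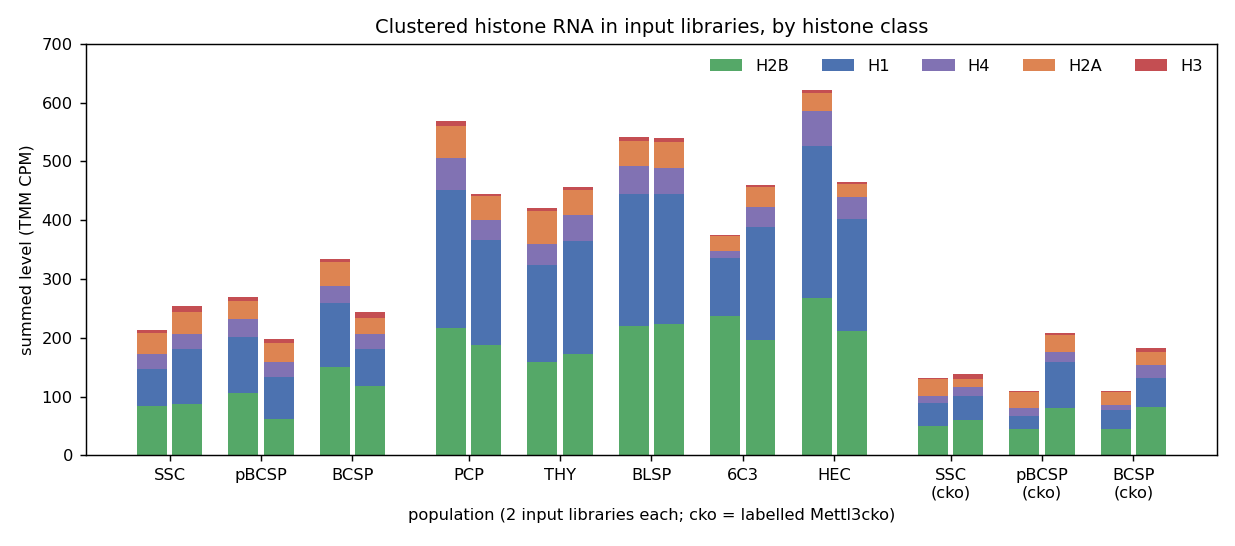
Summed TMM CPM of the 67 members in each input library, stacked by histone class (y axis) for the 8 WT populations and the 3 populations labelled Mettl3cko (x axis, 2 libraries each). WT SSC, pBCSP and BCSP libraries reach 198 to 334 CPM, the 10 downstream libraries 374 to 622 and the 6 labelled Mettl3cko 110 to 207.

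The summed input level was lower in SSC, pBCSP and BCSP than downstream. It was 213 and 254 CPM in SSCs, 269 and 198 in pBCSPs and 334 and 244 in BCSPs. Downstream it was 568 and 444 in PCP, 421 and 457 in THY, 541 and 540 in BLSP, 374 and 460 in 6C3 and 622 and 465 in HEC, so the 6 stem and progenitor libraries and the 10 downstream libraries did not overlap. Without Hist1h2bc and Hist1h1c the other members summed to 88.8 to 107 CPM against 92.6 to 223, and the groups overlapped. The H1 genes summed to 61.9 to 108 CPM against 98.3 to 257, and the H2B genes to 62.1 to 151 against 159 to 268. H2A sums overlapped (28.1 to 39.3 against 22.6 to 57.2), as did H3 sums (4.77 to 10.3 against 1.32 to 7.22) and H4 sums (24.5 to 30.3 against 11.9 to 59.9). Bulk libraries cannot tell fewer expressing cells from less RNA per cell.

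Of 54 members that passed the filter on low counts, 22 differed between SSC, pBCSP and BCSP and the downstream populations (edgeR quasi-likelihood test, adjusted p under 0.05), 13 lower and 9 higher in the stem and progenitor populations. Over all 20060 genes tested, 28.3% were called lower and 23.1% higher, so the share of members called was no larger than that of genes in general. The median log2 difference was -0.03 over the members and -0.11 over all genes. By histone class, 4 of 6 H1 genes fell and 0 rose, while 6 of 10 H4 genes rose and 1 fell. Among H2A genes 5 of 13 fell and 1 rose, among H2B genes 3 of 16 fell, and among H3 genes 2 of 9 rose.

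Hist1h1e showed the clearest difference among the linker histone genes. It stood at 2.93 to 5.52 CPM (median 3.91) in the 6 stem and progenitor libraries and at 16.9 to 40.1 (median 23.6) in the 10 downstream libraries, with no overlap (log2 difference -2.74 ± 0.21, adjusted p = 2.98e-08, edgeR). Hist1h1b ranged from 0.974 to 2.50 CPM and from 2.59 to 12.9, again without overlap (-2.31 ± 0.27, adjusted p = 3.30e-06). Hist1h1c, the most abundant H1 gene, overlapped through a single 6C3 library at 75.2 CPM (52.4 to 98.5 against 75.2 to 205) and fell by 1.15 ± 0.18 (adjusted p = 6.43e-05). Hist1h1d differed by -1.04 ± 0.28 (adjusted p = 0.0055).

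Core histone genes of the same cluster were lower as well. Hist1h2bc reached 48.4 to 130 CPM against 145 to 239, and the groups did not overlap (-1.25 ± 0.13, adjusted p = 9.09e-07, edgeR). Hist1h4d stood at 2.67 to 8.78 CPM against 6.98 to 49.9, where the 6C3 library of replicate 1, at 6.98, lay within the lower group (-2.24 ± 0.28, adjusted p = 5.87e-06). The H2A genes Hist1h2ap (-1.37 ± 0.20), Hist1h2ae (-1.54 ± 0.26) and Hist1h2ag (-0.60 ± 0.19) and the H2B gene Hist1h2bg (-1.08 ± 0.18) also fell. Hist1h2ab (-2.24), Hist1h2ao (-0.96) and Hist1h2be (-0.98) complete the 13 and are named for that count.

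Of the 9 genes that rose in SSC, pBCSP and BCSP, 6 encode H4. Hist4h4, the single gene of its locus, stood at 3.86 to 6.68 CPM (median 5.16) against 0.421 to 3.67 (median 1.33) and did not overlap (1.77 ± 0.29, adjusted p = 0.000112, edgeR). Hist1h4m ranged from 0.568 to 1.95 CPM against 0 to 0.391 (2.55 ± 0.58), and Hist1h4c from 3.80 to 5.93 against 1.22 to 5.20 (0.99 ± 0.28). Hist1h4i (1.18 ± 0.34), Hist2h4 (1.30 ± 0.39) and Hist1h4n (1.41 ± 0.57) also rose. Outside H4, the H2A gene Hist1h2ac rose (6.98 to 13.2 CPM against 1.74 to 10.9, 1.32 ± 0.26), where PCP replicate 1 alone of the downstream libraries exceeded 6.98 CPM. The H3 genes Hist1h3i (0.96 ± 0.33) and Hist1h3f (1.53 ± 0.62) rose too. Hist1h4d and Hist4h4 encode H4 and carry the same stem-loop printed above, yet moved in opposite directions. Leaving out 1 library ended the calls of Hist1h4i (without pBCSP replicate 1, adjusted p = 0.050), Hist1h2ag (without SSC replicate 1, 0.056), Hist1h3i (6 of 16 libraries, up to 0.071) and Hist1h3f and Hist1h4n (14 of 16 each, up to 0.41 and 0.10).

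**Figure D2:**
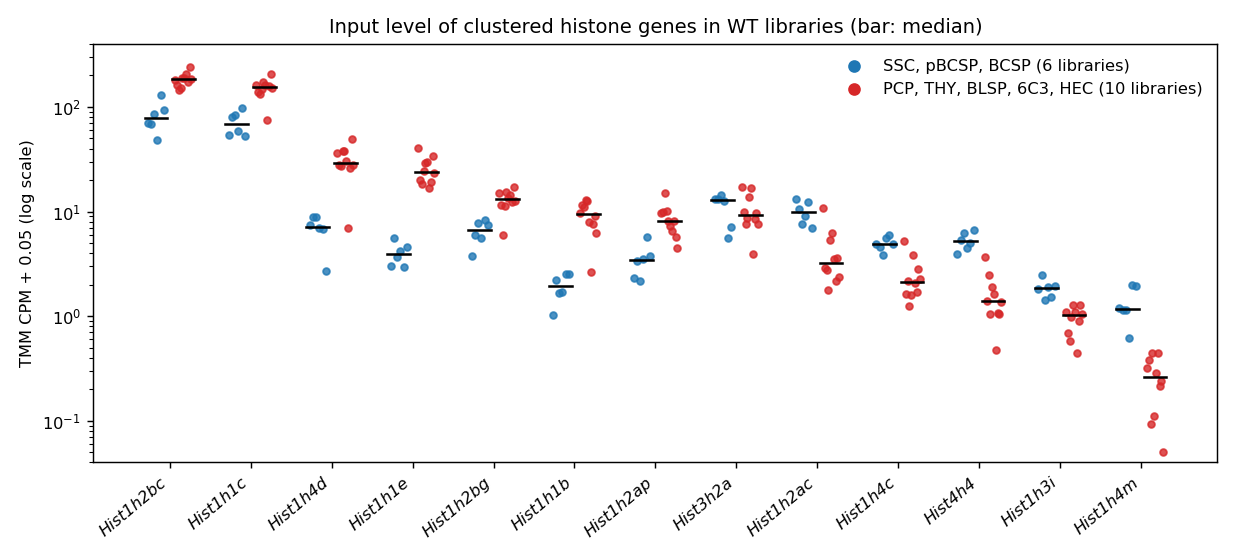
Input level of 13 members in WT libraries (y axis, TMM CPM + 0.05, log scale; each point is 1 library, bars are medians). Hist1h2bc, Hist1h1e and Hist1h1b lie lower in the 6 SSC, pBCSP and BCSP libraries without overlap, and Hist4h4, Hist1h3i and Hist1h4m lie higher without overlap.

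Across the 8 populations taken singly, 15 of 54 members differed (7 degrees of freedom, adjusted p under 0.05), against 40.1% of all genes. Hist1h1e, Hist1h2bc, Hist1h1b and Hist1h4d had the smallest p-values. Hist3h2a, an H2A gene, was called here (adjusted p = 0.026) without a difference between the 2 sides. It was highest in PCP replicate 1 (17.1 CPM), BLSP replicate 2 (16.6), pBCSP replicate 1 (14.3) and BLSP replicate 1 (13.8), and lowest in 6C3 replicate 1 (3.88). Hist1h2ap, Hist1h2ae and Hist1h2ao were highest in THY replicate 1, at 15.1, 11.5 and 7.15 CPM. Neighbouring downstream populations were close: in Hist1h1e, THY had 18.4 and 24.1 CPM, 6C3 16.9 and 19.2, and HEC 34.2 and 23.1.

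Genes of the cell cycle and of other cells also differed between the 2 sides. All 20 genes of a G2 and mitosis list were lower in SSC, pBCSP and BCSP, led by Nusap1 (-2.01), Kif11 (-2.07), Prc1 (-2.10) and Top2a (-1.84), with a median of -1.42. Of 28 S phase genes 16 fell and 2 rose (median -0.55), led by Rrm2 (-1.72), the small subunit of ribonucleotide reductase, and the helicase gene Mcm2 (-1.45). Slbp, whose product binds the stem-loop, rose by 1.11 ± 0.11 and Casp8ap2 fell by 0.85 ± 0.12, among 5 higher and 5 lower of 15 genes for histone mRNA synthesis and processing. Of 18 chaperone genes, 6 rose (Rbbp7 0.85) and 6 fell (Chaf1b -1.56). Among replication-independent variants 2 rose (H2afx 0.78) and 4 fell, namely the linker genes H1f0 (-1.25) and H1fx (-4.09), Cenpa (-0.82) and 1 more of the 11.

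Markers of red blood cells also rose downstream: 7 of 7 measured erythroid markers were called, and they summed to 0.726 to 5.83 CPM in the 6 stem and progenitor libraries and 17.5 to 143 downstream. Their part in the histone levels was not tested. Across the 8 WT population means the summed histone level correlated with the erythroid sum at Pearson r = 0.976 (Spearman rho = 0.81), with the G2 and mitosis sum at 0.693 (0.571) and with the S phase sum at 0.403 (0.238). These 8 points are given as a description, since both sums come from the same libraries and the populations fall into 2 sides. Among downstream libraries erythroid RNA was lowest in 6C3 replicate 1 (17.5 CPM) and THY replicate 2 (25.2), whose histone sums were 374 and 457 CPM. With the 3 downstream libraries over 100 CPM of erythroid markers set aside, the others still held 17.5 to 95.9 CPM. A fit without those 3 therefore cannot separate these markers from the 2 sides, and its calls are not given. Endothelial markers summed to 101 and 122 CPM in PCP and to at most 30.8 in the other WT inputs. The part of endothelial RNA in the histone levels was not tested either.

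IP libraries were compared with input to find members enriched by the m6A antibody. After TMM scaling the members summed to 304 to 583 CPM in the stem and progenitor IP libraries and to 873 to 1197 CPM in downstream IP libraries, without overlap. The rule for m6A tagging in each population asked for a log2 IP to input ratio above 1 and an unadjusted p under 0.05 in edgeR. Tagged members numbered 2 of 39 tested in SSCs (10.4% of all genes tested), 1 of 40 in pBCSPs (12%) and 3 of 42 in BCSPs (6.67%). Among downstream populations PCP had 14 of 51 (10.6% of all genes), THY 15 of 37 (12.4%) and BLSP 10 of 48 (12.4%). Both 6C3, with 14 of 40 (14.5%), and HEC, with 14 of 39 (13.5%), were in the same range. In total 24 members were tagged in at least 1 population, all 24 in a downstream one and 4 of them also in SSC, pBCSP or BCSP. With an adjusted p the total was 12. The matching totals over all genes are not given here, so these totals do not set the members apart from other genes.

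Among tagged members, the H2A gene Hist1h2ap was tagged in 7 populations and lay above 1 in each of the 8 (1.08 in pBCSP to 2.06 in PCP), Hist1h2ag and Hist1h2bc were tagged in 6, and Hist1h1b, Hist1h1e, Hist1h2ae, Hist1h2ao, Hist1h4d and Hist1h4i in 5. Hist1h2ap, Hist1h2ag, Hist1h2ae and Hist1h2ao share much sequence, as given above, and are not independent of each other. 7 members were tagged in all 5 downstream populations, and none was tagged in all 8, again without a matching count over all genes. The gene Hist1h1c, abundant in input, stayed near 0 throughout, from -0.02 in pBCSPs to 0.47 in BCSPs.

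**Figure D3:**
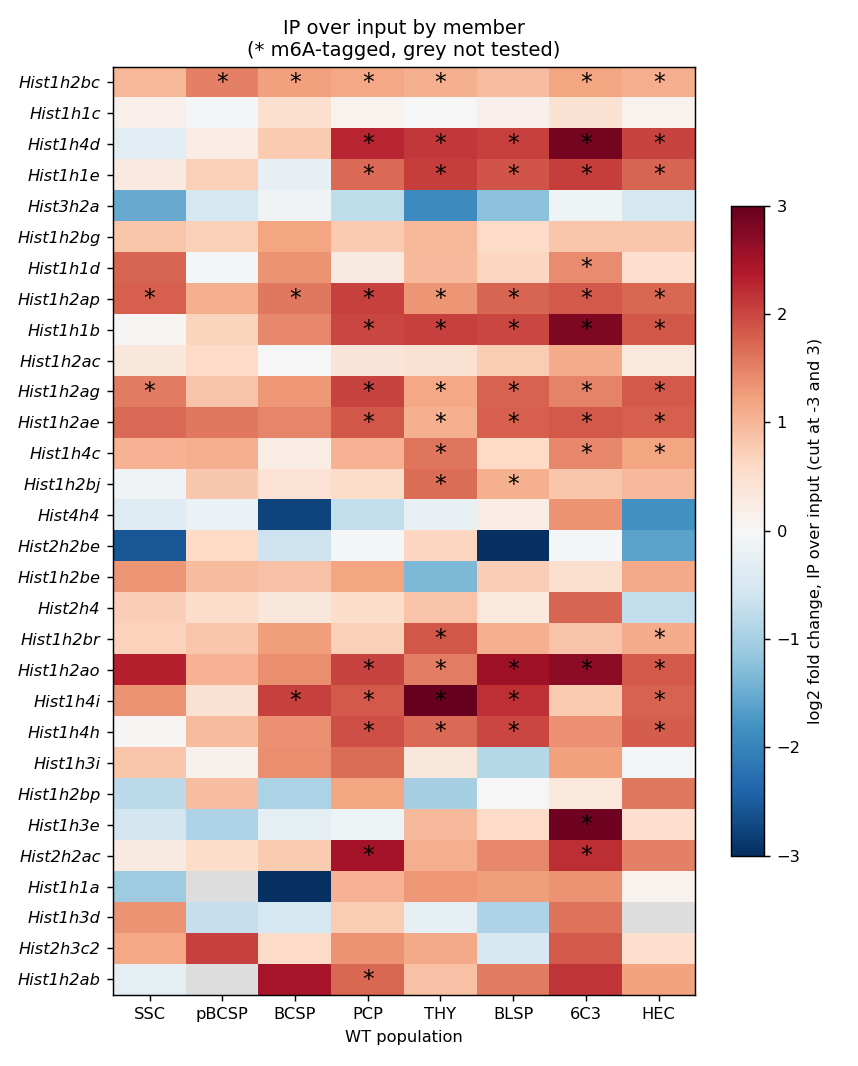
Log2 fold change of IP over input for the 30 most abundant members (rows, by input level) in the 8 WT populations (columns). Asterisks mark tagged members, grey cells were not tested, and Hist1h4d, Hist1h1e and Hist1h1b carry asterisks in the 5 downstream columns and in none of the first 3.

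Averaged over the 8 populations in a single fit, 27 of 58 members differed between IP and input (adjusted p under 0.05, edgeR), 24 higher and 3 lower, against 17.2% and 25.2% of all genes. This comparison was added after the data were seen. The median log2 fold change was 0.91 over the members and 0.00 over all genes, and 46 of 58 lay above 0. The 10 with the smallest p among those higher were Hist1h2bc (1.09 ± 0.08 SE), Hist1h2ap (1.58 ± 0.14), Hist1h2ag (1.44 ± 0.14), Hist1h4d (1.44 ± 0.16), Hist1h1e (1.22 ± 0.14), Hist1h2ae (1.58 ± 0.19), Hist1h1b (1.54 ± 0.19), Hist1h2ao (1.87 ± 0.24), Hist1h4i (1.65 ± 0.28) and Hist1h2bg (0.79 ± 0.15). By class, 10 of 15 H2A genes, 6 of 12 H4, 5 of 16 H2B, 3 of 6 H1 and 0 of 9 H3 genes were higher in IP. Among the H3 genes 1 had an unadjusted p under 0.05 (edgeR).

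3 members were depleted in IP. Hist3h2a stood at -0.90 ± 0.19 (adjusted p = 0.00024, edgeR) and its 16 replicate ratios ran from -2.45 in SSC replicate 2 to 0.50 in BCSP replicate 1. Hist1h1t (-2.83 ± 0.93) lost its call without THY replicate 2 or HEC replicate 2, and Hist2h2be (-1.07 ± 0.43) without any of 11 replicate pairs, with adjusted p up to 0.093. By annotated end, 11 of 19 members whose model ends at the stem-loop and 7 of 21 with a longer model were higher in IP. Their medians were 1.23 and 0.48.

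Lists of other genes for histones and DNA replication are given by their own counts. Of 28 S phase genes 19 were lower in IP and 2 higher (median -0.91), led by Mcm6 (-1.87), Cdt1 (-1.55), Pold1 (-2.62) and Mcm7 (-1.15). Among the replication-independent variants 6 of 11 were higher, such as H3f3a (1.09) and H2afz (0.83), and 3 lower, such as H1f0 (-1.86) and H2afy2 (-1.85). Of the 15 processing genes 6 were lower, such as Slbp (-0.83), Cpsf3 (-1.52) and Cstf2 (-1.88), and 4 higher, such as Lsm10 (0.87), a subunit of the U7 particle that cuts histone pre-mRNA. Of the 18 chaperone genes 9 were lower, such as Ssrp1 (-1.49) and Daxx (-2.36), and 7 higher, such as Nap1l1 (0.99). Erythroid markers were higher in IP in 4 of 7 (median 1.35).

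The IP to input ratio of 4 members was lower in SSC, pBCSP and BCSP than downstream (interaction in the fit of 32 libraries, adjusted p under 0.05), of 58 tested and against 1.77% of all genes. None was higher, by edgeR or DESeq2, and 7 passed an unadjusted p under 0.05. For Hist1h4d the log2 ratios in the 6 replicate pairs of SSC, pBCSP and BCSP were 0.18, -1.29, 0.23, 0.00, -0.32 and 1.92, and the 10 downstream ratios ran from 1.78 to 4.18. The ratio of BCSP replicate 2 lay among the downstream values, and the difference was -1.94 ± 0.34 (adjusted p = 0.00083). Hist1h1e had ratios from -1.20 to 1.05 against 1.54 to 2.30, without overlap (-1.51 ± 0.30, adjusted p = 0.0028).

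Hist1h1b ratios were -1.51 to 1.80 against 1.32 to 3.96 and overlapped (-1.31 ± 0.39, adjusted p = 0.048). This call was lost without any of 7 replicate pairs (SSC 2, pBCSP 2, BCSP 1, THY 1, THY 2, BLSP 1 or 6C3 1), with a difference between -1.80 and -0.85 and an adjusted p up to 0.32. The H1 gene Hist1h1a differed most (-4.59 ± 1.07, adjusted p = 0.011), on WT IP counts of 6 and 21 in SSCs, 0 and 6 in pBCSPs and 0 and 0 in BCSPs. Hist1h4d, Hist1h1e and Hist1h1b are also among the members with lower input in SSC, pBCSP and BCSP. Hist1h2bc and Hist1h2ap, also lower in input there, had overlapping ratios. Hist1h2bc ratios were 0.82 to 1.72 in the 6 stem and progenitor pairs and 0.89 to 1.45 in the 10 downstream pairs, and Hist1h2ap ratios 0.90 to 2.27 and 1.04 to 2.22.

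**Figure D4:**
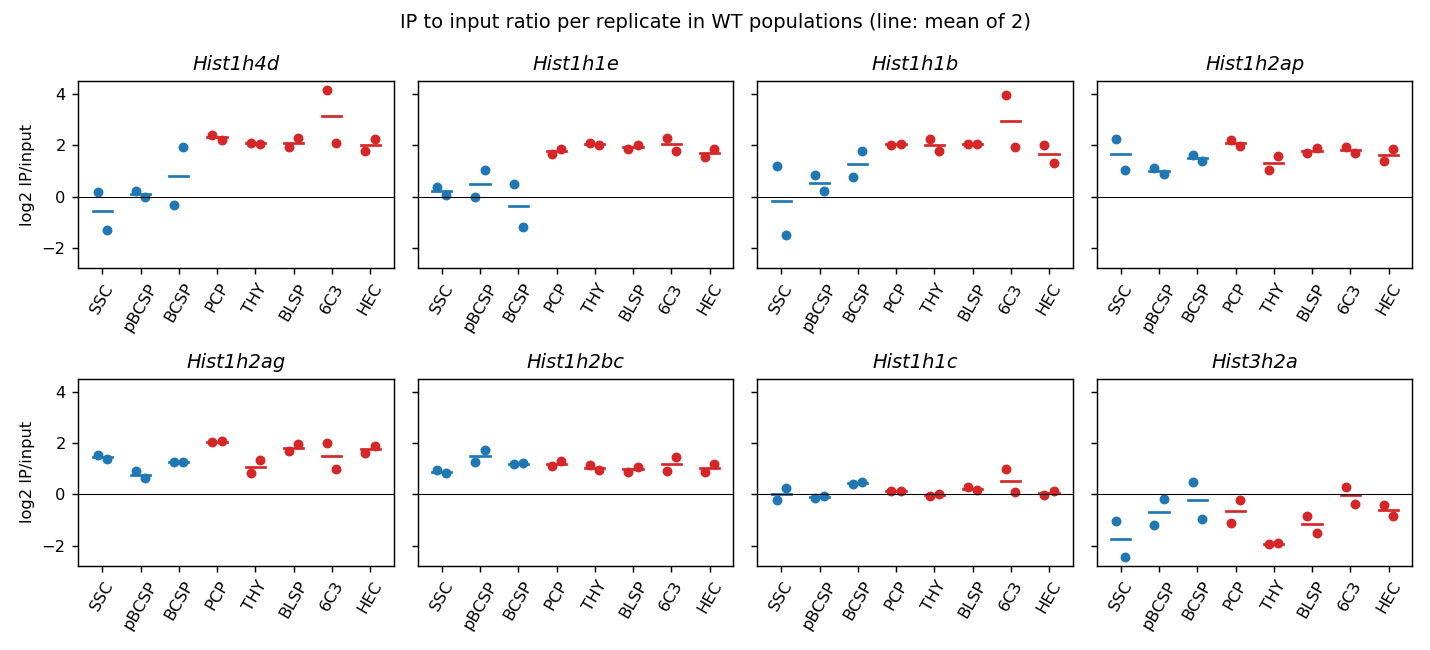
Log2 IP to input ratio of 8 members in each WT replicate (y axis; prior count of 2) by population (x axis; blue SSC, pBCSP and BCSP, red downstream; lines are means of 2). Hist1h1e separates the 2 sides, Hist1h4d does so except for 1 BCSP replicate, and Hist1h2bc, Hist1h1c and Hist1h2ap do not.

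Input libraries labelled Mettl3cko held less clustered histone RNA than WT libraries of the same population. The summed level was 132 and 138 CPM in SSCs against 213 and 254 in WT, 110 and 207 in pBCSPs against 269 and 198, and 110 and 182 in BCSPs against 334 and 244. The groups overlapped in pBCSP alone. Of the members tested, 32 of 37 lay below 0 in SSCs, 30 of 36 in pBCSPs and 35 of 39 in BCSPs, with median log2 differences of -0.78, -0.81 and -0.88 against -0.02, -0.02 and -0.01 over all genes. Each comparison rests on its own 2 libraries per genotype.

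5 members fell in SSCs (log2 difference beyond 0.5 and unadjusted p under 0.05, edgeR), against 7.07% of all genes called lower, and 0 rose. Hist1h2ac was at 2.91 and 1.81 CPM against 13.2 and 10.6 (-2.33 ± 0.43, unadjusted p = 0.00089). Hist1h1e was at 0.561 and 0.667 CPM against 2.99 and 5.52 (-2.78 ± 0.72), and Hist3h2a at 4.77 and 5.85 against 13.2 and 13.2 (-1.31 ± 0.35). Hist1h1c (-0.89 ± 0.25) and Hist1h2bc (-0.71 ± 0.21) fell too, and in each of these 5 genes both libraries labelled Mettl3cko lay below both WT libraries. Over the 13756 genes with a mean of at least 1 CPM across the input libraries, this held for 26.3% in SSCs, 23.3% in pBCSPs and 22.7% in BCSPs. It held for 13, 11 and 13 of the 24 members at that level. At an adjusted p, 0 of the 5 passed in edgeR and 2 members did in DESeq2, where 661 of 16100 genes passed. Without WT replicate 2, Hist1h1e and Hist1h1c were no longer called (unadjusted p of 0.10 and 0.085), and Hist1h2bc was not without WT or Mettl3cko replicate 1 (up to 0.065). Hist1h2ac and Hist3h2a stayed called in each of the 4 fits that left out a library. Each of those fits keeps 1 library in a group.

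In BCSPs 5 members fell as well, against 5.72% of all genes: Hist1h1c (25.5 and 39.4 CPM against 98.5 and 52.4, -1.22 ± 0.36), Hist1h2bc (39.2 and 69.7 against 130 and 94.5, -1.04 ± 0.32), Hist1h2bg (-1.38 ± 0.49), Hist1h2ac (0.691 and 3.84 against 12.3 and 6.98, -2.08 ± 0.79) and Hist1h2bj (-2.04 ± 0.78). At an adjusted p, 0 passed in edgeR and 2 in DESeq2, where 548 of 16322 genes passed. Each of the 5 lost its call without at least 1 library, most often WT replicate 1. In pBCSPs 0 members passed the threshold in edgeR or DESeq2, against 4.48% of all genes called lower, and 0 had an unadjusted p under 0.05. The smallest p-values there belonged to Hist1h2ac (4.15 and 3.58 CPM against 7.53 and 9.06, -1.08 ± 0.45), Hist1h4d (-1.15 ± 0.52) and Hist1h2bp (-2.48 ± 1.31). The pBCSP libraries labelled Mettl3cko differed from each other, with 207 CPM of histone RNA in replicate 2 against 110 in replicate 1.

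Taking the 3 populations as a mean of 3 differences, Hist1h2ac was lower (-1.83 ± 0.37, adjusted p = 0.016, edgeR), 1 of 46 members tested against 2.72% of all genes. Hist1h2ac was below WT in both libraries of each population, as were 9 other members, among them Hist4h4 and Hist1h4c. The share of all genes below in all 3 populations is not given here. Some of these members lay near the floor, such as Hist1h3a at 0.17 and 0.07 CPM in WT SSCs. Hist1h2ac encodes H2A and its model runs 2010 bases past the stem-loop. In WT it was also one of the members with more input RNA on the stem and progenitor side. Hist1h2bc (-0.70 ± 0.20, adjusted p = 0.061) and Hist1h1c (-0.92 ± 0.27, adjusted p = 0.067) followed and passed in DESeq2. That tool called 6 of 46 members and 2408 of 18655 genes. In all, 39 of 46 members lay below 0, with a median of -0.93 against -0.05 over all genes. By class, 5 of 5 H1, 8 of 11 H2A, 10 of 12 H2B, 7 of 9 H3 and 9 of 9 H4 members lay below 0. Only Hist1h2ac among them was called in edgeR, and the classes were not tested against each other. The share of all genes below 0 is not given here. Hist1h2ap, at 8.27 and 1.94 CPM in SSCs against 2.26 and 3.29, is an H2A gene whose groups overlapped. Leaving out 1 library keeps 1 library in its group, and the number of members called then varied with the library left out. The change did not pass a test of difference between the populations in any of 46 members by edgeR (0 at an unadjusted p under 0.05, smallest adjusted p = 0.94).

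**Figure D5:**
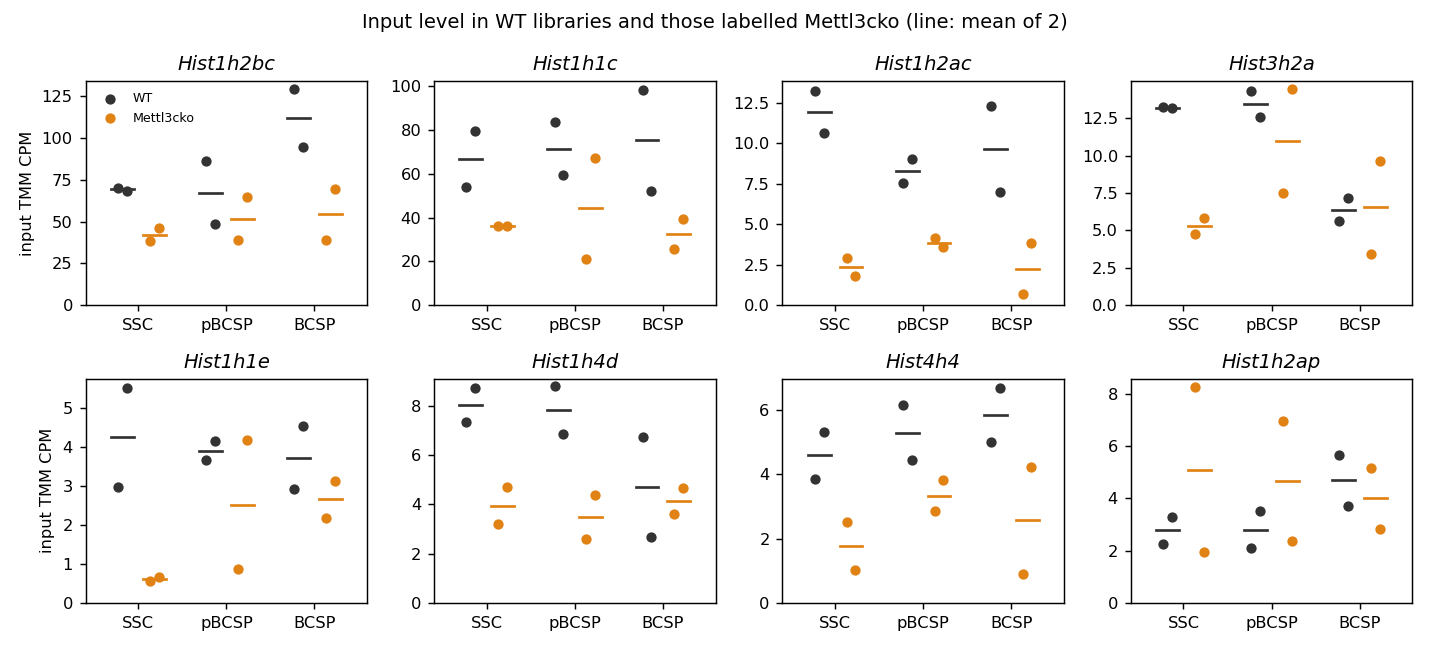
Input TMM CPM (y axis) of 8 members in SSC, pBCSP and BCSP (x axis) for WT (black) and libraries labelled Mettl3cko (orange), 2 each, lines are means. Hist1h2ac lies lower in both libraries labelled Mettl3cko in each population, whereas Hist1h2ap overlaps in each.

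None of the cell cycle genes listed was called lower in libraries labelled Mettl3cko. In the mean over the 3 populations 9 of 20 G2 and mitosis genes rose, led by Ccnb1 (1.26), Tpx2 (1.51), Aurkb (1.42) and Top2a (1.27), and none fell (median 0.86). Of 28 S phase genes Ccne1 rose (1.44) and none fell (median 0.26). Lsm10 rose (1.14) among the 15 processing genes, Rbbp7 (0.65) and Asf1b (1.29) among the 18 chaperone genes, and of the 11 variants H1f0 (0.81) and H3f3b (0.49) rose and H3f3a (-0.53) fell. Counts of falls and rises for these lists come from edgeR at the adjusted threshold, and no list was tested as a set. Erythroid markers summed to 12.1 to 52.4 CPM in the 6 input libraries labelled Mettl3cko against 0.726 to 5.83 in WT, with Hba-a1 (3.59), Hba-a2 (3.85) and Hbb-bs (3.92) called higher. Their part in the histone levels was not tested here either. The endothelial marker Egfl7 was also higher (1.13).

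The IP to input ratio in libraries labelled Mettl3cko was lower than in WT for 2 of 52 members (adjusted p under 0.05), against 3.30% of all genes, where the median over all genes was itself -0.39. Hist1h2ac had 3, 0, 2, 21, 0 and 2 IP counts in the 6 libraries labelled Mettl3cko and 134 to 537 in the 6 WT libraries (-4.88 ± 1.12, adjusted p = 0.021, edgeR). Hist2h2be had 2 counts in all in IP labelled Mettl3cko and 0 to 75 in WT (-7.40 ± 1.86, adjusted p = 0.036), so its value rests on few counts of this gene. Hist3h2a followed with 0 to 53 counts against 66 to 434 (-3.47 ± 1.06, adjusted p = 0.075). With IP and input of each replicate paired, 0 members passed (Hist1h2ac adjusted p = 0.083). Leaving out any one of the 6 WT replicate pairs also left 0 members called. Fewer genes were detected in these IP libraries, as given above, and the part of this in the ratios was not tested. Hist1h2ap ratios stayed between 2.01 and 3.15 in the 6 pairs labelled Mettl3cko, against 0.90 to 2.27 in the 6 WT pairs, without a call.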

How the data were processed

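SLIM-seq libraries (IP and input, 2 replicates per group) were made by the study from RNA of sorted cells. The authors trimmed reads with fastp 0.20.1, aligned them with HISAT2 2.2.1 to GRCm38 and deposited raw counts per gene from featureCounts 2.0.1. The handling of strand and of reads matching several genes is not given in the sources used here. The other deposited tables hold the authors' own comparisons (log2 fold changes, p-values and scores) and were not used.

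Of 46959 entries, 128 with a symbol turned into a date were left out. The counts were tested with edgeR 4.0.16 (R 4.3.3) after filterByExpr and TMM scaling, by the quasi-likelihood test with Benjamini-Hochberg adjustment across every gene in each fit. Errors after ± are standard errors of log2 fold changes. CPM values were scaled over all 44 libraries. The fold and p thresholds for tagging and for the Mettl3cko comparisons were those of the study's methods. Replicate ratios used a prior count of 2. Scripts were tested on simulated data. Alternatives were DESeq2 1.42.0, other scalings, no filter on low counts, a replicate block and leaving out each library.

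Members and gene lists were chosen with earlier results of these data known. Named with values were the 12 members highest in WT input and, per comparison, up to 10 members called in each direction by smallest p, or the 3 with the smallest p where fewer than 3 were called, and from each list up to 4 genes called. The IP and input libraries of a replicate come from the same sorted cells, and their deviations correlated at r = 0.0144 to 0.213 in WT and 0.0372 to 0.0476 in libraries labelled Mettl3cko. WT and Mettl3cko libraries share only a number.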

Additional observations from a re-analysis of the deposited data

Results flagged for a closer look

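Of the IP to input ratios, 4 differed between SSC, pBCSP and BCSP and the downstream populations by an interaction test (edgeR, adjusted p under 0.05). The log2 differences were -4.59 for Hist1h1a, -1.94 for Hist1h4d, -1.51 for Hist1h1e and -1.31 for Hist1h1b. Hist1h1a rests on 0 to 21 IP counts per library on the stem and progenitor side.

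Another 2 ratios differed between libraries labelled Mettl3cko and WT by an interaction test, Hist1h2ac at -4.88 and Hist2h2be at -7.40 on the log2 scale. Both were lost when IP and input were paired by replicate. The Mettl3 count did not check the Mettl3cko label. With 2 libraries per group, no library could be tested as standing apart within its group.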

How the results depend on the processing

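No result changed direction under any alternative. Of the values for single members, 331 kept their side of the threshold, 51 lost it and 16 gained it. Leaving out each library gave 17 to 22 members for the 22 that differed in input between stem or progenitor and downstream populations, 13 to 16 for the 15 that differed among 8 populations, 21 to 29 for the 24 tagged, 21 to 25 for the 27 that differed between IP and input, and 3 to 4 for the 4 ratios. For libraries labelled Mettl3cko it gave 3 to 14 in SSC, 0 to 12 in pBCSP, 1 to 13 in BCSP, 1 to 8 in the mean of the 3 populations and 0 to 3 for the ratio. Each such fit keeps 1 library in a group, and the share of all genes called in it is not given here. These ranges therefore describe only the dependence on single libraries. With an adjusted p, 12 members were tagged, and 0 were called in SSC and 0 in BCSP. A single fit of 12 input libraries called 3 in SSC, against 1934 of 18655 genes. Without a filter on low counts, 1 was called in pBCSP (2244 of 24357 genes) and 3 in the mean (2200 of 27754). DESeq2 called 6 in the mean and 5 for the ratio, against 2408 of 18655 and 2239 of 20360 genes. With the replicate block the mean gave 2 (1616 of 18655 genes) and the ratio 0 (204 of 20360). For the 22 input differences the block gave 21 (10203 of 20060 genes), and for the 15 among populations 15 (7793 of 20060). Between IP and input it gave 21 and for the 4 ratios 4 (10628 and 1761 of 25365 genes). It gave 5 in SSC (2313 of 16100 genes), 0 in pBCSP (1330 of 16017) and 5 in BCSP (2194 of 16322). Genes are counted in either direction. The block gave 20 tagged, and the total over all genes is not given here, as for the 12 above. The cause of these shifts was not tested. DESeq2 moved the median log2 of all genes to 0.20 between IP and input (from 0.00) and to -0.26 for the ratio between populations (from -0.08), and dropping the filter moved it to -0.52 for input (from -0.11). With 2 libraries per group and many members under 1 CPM, small changes were not detectable at this depth.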
